A study of Homo sapiens with 10 samples.

Results

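The metallothionein genes MT1E, MT1F, MT1G, MT1M, MT1X and MT2A were followed across all RNA-seq libraries of the study. They were taken by name from both deposited count tables and made up 6 of the 59453 genes listed there. The samples were cells of HAP1, a human line of leukaemic origin (KBM-7) with a nearly haploid genome. Untreated clones were wild type (WT, clones 2 and 11), or carried CRISPR-Cas9 insertions or deletions in MUTYH (MUTYH-/, clones 7 and 8), in OGG1 (OGG1-/, clones 1 and 22) or in both (DKO, clones 4 and 14), with 1 library per clone. MUTYH removes adenine paired with the oxidized base 8-oxoguanine, and OGG1 removes 8-oxoguanine itself. In the remaining group, WT_H2O2, the same WT clones were harvested 24 h after addition of 100 µM H2O2. Every group therefore held 2 libraries, and p-values measure the spread between clones. Both DKO clones were made from 1 of the OGG1-/ clones, taken from its product number to be clone 22, so 3 of the 4 OGG1-lacking clones shared 1 lineage. No knockout clone was treated with H2O2.

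Metallothioneins are small cytosolic proteins in which cysteine thiolates hold zinc and copper and can also take up cadmium. Their transcription is driven by metal regulatory transcription factor 1 (MTF1), which binds metal response elements when free zinc rises, and oxidants are known to induce the genes by releasing bound zinc. The same thiolates react with oxidants, which is why the family is counted among antioxidant defences.

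The members lay in 1 cluster on chromosome 16 (GRCh38) and had 3 exons each. MT2A (ENSG00000125148) was at chr16:56608584-56609497, MT1E (ENSG00000169715) at chr16:56625475-56627112, MT1M (ENSG00000205364) at chr16:56632659-56633981, MT1F (ENSG00000198417) at chr16:56657731-56660698 and MT1X (ENSG00000187193) at chr16:56682470-56684196, all on the plus strand. MT1G (ENSG00000125144) was at chr16:56666730-56668065 on the minus strand. The coding sequences of MT2A and MT1E, the abundant pair of the family, are shown as read from the GENCODE transcripts, with cysteine codons in capitals:
MT2A coding sequence (plus strand, exons within chr16:56608656-56609354): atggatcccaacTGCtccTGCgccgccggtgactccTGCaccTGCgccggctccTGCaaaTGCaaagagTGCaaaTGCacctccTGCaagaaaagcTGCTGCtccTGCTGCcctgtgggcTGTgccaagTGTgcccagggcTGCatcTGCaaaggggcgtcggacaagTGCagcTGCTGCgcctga
MT1E coding sequence (plus strand, exons within chr16:56625852-56626971): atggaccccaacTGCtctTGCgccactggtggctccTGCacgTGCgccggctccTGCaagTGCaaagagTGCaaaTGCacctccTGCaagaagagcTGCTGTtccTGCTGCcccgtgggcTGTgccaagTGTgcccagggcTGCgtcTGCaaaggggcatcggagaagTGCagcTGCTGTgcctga
Each member encoded 20 cysteines among 61 codons, or 62 in MT1G, so that cysteine codons made up 32.3% to 32.8%. MT1M was the only member with a histidine codon. MT1E and MT2A shared 92.5% of their coding bases, and identity over all pairs ranged from 88.7% (MT1F and MT1X) to 93.7% (MT1G and MT2A).

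The likeness of the members limited how well short reads could be assigned. Of all stretches of 50 bases in a member's transcript, 4.55% (MT2A) to 19.7% (MT1G) also occurred in another of 15 metallothionein transcripts of the cluster, and none of 100 bases did. With up to 2 mismatches allowed, the share at 50 bases was 12.2% (MT1F) to 53.6% (MT1M), and at 100 bases it was 6.11% in MT1G, 7.21% in MT1X, 8.28% in MT2A and 0 in the others. The read length and the treatment of reads with several alignments are not given in the sources used here, so values of single members are uncertain by the share of reads that could be split. MT1X also overlapped ENSG00000259827 on its own strand.

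Promoters were available from the RefSeq table (GRCh38.p14) for 2 members. The windows of 250 bases before to 50 bases after the gene start are shown because they hold the sequence read by MTF1. Capitals mark the core of the metal response element, TGCACNC or TGCGCNC, on either strand:
MT2A promoter (chr16:56608334-56608633, plus strand): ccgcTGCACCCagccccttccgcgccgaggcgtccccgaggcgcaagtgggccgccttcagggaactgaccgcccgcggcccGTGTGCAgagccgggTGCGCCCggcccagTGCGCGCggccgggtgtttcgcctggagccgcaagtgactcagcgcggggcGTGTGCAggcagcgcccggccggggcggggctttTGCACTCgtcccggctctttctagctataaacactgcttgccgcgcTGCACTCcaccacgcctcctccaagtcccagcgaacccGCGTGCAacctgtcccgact
MT1X promoter (chr16:56682220-56682519, plus strand): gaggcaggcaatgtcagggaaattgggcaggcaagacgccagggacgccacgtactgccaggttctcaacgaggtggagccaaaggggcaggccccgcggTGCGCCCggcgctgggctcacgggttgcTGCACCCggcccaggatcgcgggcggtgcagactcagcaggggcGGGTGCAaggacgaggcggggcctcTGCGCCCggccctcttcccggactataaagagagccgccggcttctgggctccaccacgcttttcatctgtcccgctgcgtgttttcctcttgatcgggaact
The MT2A window held 8 matches, 7 of them wholly before the gene start, and the MT1X window held 4, all before the start. No matches overlapped each other. Among 35116 promoter windows of this length the median was 0 matches, 0.601% held 4 or more and 0.0199% held 8 or more. Other metallothionein windows also held matches, with 8 in MT1H, which had at most 1 count per library, and 3 each in MT1B and MT4, which had 0 counts. Not listed in that table were MT1E, MT1F, MT1G and MT1M. A match is a run of letters and not a measured binding site.

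**Figure D1:**
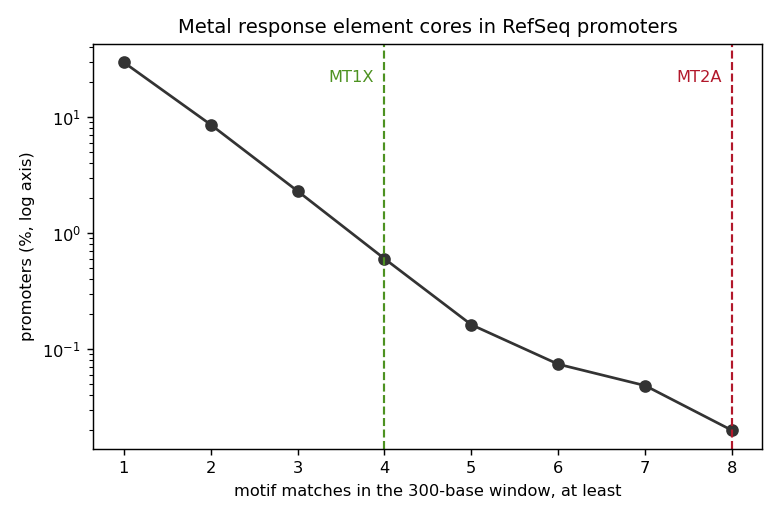
Share of 35116 RefSeq promoter windows (y axis, percent, log axis) with at least the number of metal response element cores on the x axis. Dashed lines mark MT1X with 4 matches, reached by 0.601% of windows, and MT2A with 8, reached by 0.0199%.

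Libraries held 22225091 to 22674964 counts, so that 1 CPM stood for at least 22.2 counts. Mitochondrial genes took 2.995% to 7.455% of counts. Reads remained on both targeted genes in the knockout clones. OGG1 was at 12.2 and 13.1 CPM in WT, 1.22 CPM in OGG1-/ clone 1, 11.3 CPM in OGG1-/ clone 22 and 9.63 and 9.83 CPM in DKO, and MUTYH ranged from 2.2 to 5.38 CPM over all libraries, so gene counts showed a loss of transcript in OGG1-/ clone 1 and could not check the labels of the other knockout clones. According to the paper, targeted mass spectrometry of the proteins verified the knockout in every clone. Of 9 leukocyte markers, PTPRC, SPI1, MPO and CD68 had at most 3 counts in every library and only KIT reached a mean of 1 CPM, although the parental line was a leukaemia. Within each genotype the 2 clones differed in a shared way over genes other than metallothioneins. Setting WT clone 2, MUTYH-/ clone 8, OGG1-/ clone 22 and DKO clone 14 on one side held 49.25% of the clone differences in log2 CPM, against 13.9% to 26.9% for the 7 other arrangements. These sides were found in the data, and they served only for a fit with side as a block and for differences within a side.

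MT1E and MT2A supplied most metallothionein transcripts in all 10 libraries. Per kilobase of transcript, the mean level over the libraries was 186 CPM per kb for MT1E and 178 for MT2A, followed by 27.8 for MT1X, 17.7 for MT1F, 12.1 for MT1M and 0.12 for MT1G. The order of the first pair rested on the transcript length, since the full GENCODE transcript of MT1E, which starts before the RefSeq gene, gave 105 CPM per kb. MT1E and MT2A together took 83.4% to 87.1% of the counts of the 6 members. Their ratio hardly moved: MT2A counts divided by MT1E counts lay between 0.868 (WT_H2O2 clone 2) and 1.08 (OGG1-/ clone 22).

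**Figure D2:**
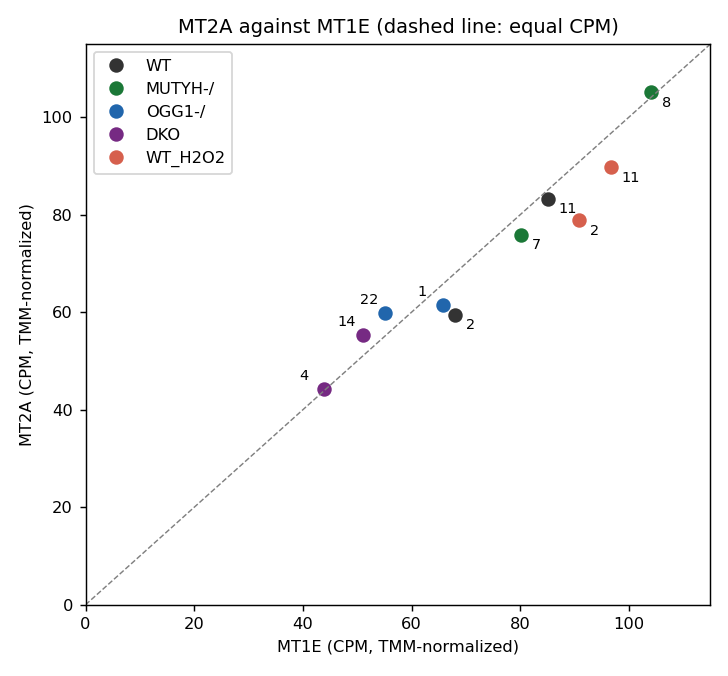
MT2A against MT1E in CPM for the 10 libraries, coloured by group and numbered by clone; the dashed line marks equal CPM. Points follow the line from DKO clone 4 (43.9 CPM MT1E, 44.2 CPM MT2A) to MUTYH-/ clone 8 (104 and 105 CPM), with MT2A over MT1E count ratios of 0.868 to 1.08.

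Summed over the 6 members, the level was 193 and 148 CPM in WT clones 11 and 2, 180 and 242 CPM in MUTYH-/ clones 7 and 8, 147 and 137 CPM in OGG1-/ clones 1 and 22, 104 and 128 CPM in DKO clones 4 and 14, and 216 and 196 CPM in WT_H2O2 clones 11 and 2. MUTYH-/ clone 8 was the highest library and DKO clone 4 the lowest, and every DKO library lay below every library of the other groups. The share of all genes with DKO lowest in this way was not counted. Against WT alone, both DKO libraries were lower for 12.6% of all genes tested. The remaining groups could not be ordered in full: WT overlapped MUTYH-/, and OGG1-/ clone 1 was at 147 CPM beside 148 CPM in WT clone 2.

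MT2A, the main metal-induced isoform in most human cells, was measured at 83.2 and 59.4 CPM in WT clones 11 and 2, 75.9 and 105 CPM in MUTYH-/ clones 7 and 8, 61.5 and 59.9 CPM in OGG1-/ clones 1 and 22, 44.2 and 55.3 CPM in DKO clones 4 and 14, and 89.7 and 78.9 CPM in WT_H2O2 clones 11 and 2. Both DKO libraries lay below all others, an order whose share over all genes was not counted. The pair of OGG1-/ libraries was level with the lower WT clone. MT1E gave 85.1 and 68.0 CPM in WT clones 11 and 2, 80.2 and 104 CPM in MUTYH-/ clones 7 and 8, 65.7 and 55.2 CPM in OGG1-/ clones 1 and 22, 43.9 and 51.1 CPM in DKO clones 4 and 14, and 96.7 and 90.9 CPM in WT_H2O2 clones 11 and 2. All 4 OGG1-lacking libraries were below all 4 untreated OGG1-proficient ones for MT1E, as was so for 1.55% of all genes tested. Group means of MT1E were 92.1 ± 16.8 CPM (SD, n = 2) in MUTYH-/, 76.6 ± 12.04 in WT, 60.5 ± 7.46 in OGG1-/ and 47.5 ± 5.05 in DKO, and those of MT2A were 90.5 ± 20.7, 71.3 ± 16.8, 60.7 ± 1.13 and 49.8 ± 7.82 CPM in the same order.

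Over the 10 libraries the highest CPM was 2.12 times the lowest for MT1M and MT1X and 2.94 times for MT1F, beside 2.37 times for MT1E and 2.38 times for MT2A. MT1X was measured at 11.4 and 10.9 CPM in WT clones 11 and 2, 10.2 and 15.2 CPM in MUTYH-/ clones 7 and 8, 9.90 and 10.97 CPM in OGG1-/ clones 1 and 22, 7.16 and 11.3 CPM in DKO clones 4 and 14, and 12.7 and 12.6 CPM in WT_H2O2 clones 11 and 2. DKO clone 4 stood lowest for MT1X while DKO clone 14 was level with WT. MT1F was measured at 8.15 and 5.06 CPM in WT clones 11 and 2, 7.71 and 12.4 CPM in MUTYH-/ clones 7 and 8, 6.10 and 7.37 CPM in OGG1-/ clones 1 and 22, 4.21 and 6.31 CPM in DKO clones 4 and 14, and 9.99 and 8.05 CPM in WT_H2O2 clones 11 and 2. For MT1F, DKO clone 4 lay below both WT clones, MUTYH-/ clone 8 lay above both, and the 4 other knockout libraries lay between them. MT1M was measured at 5.41 and 4.35 CPM in WT clones 11 and 2, 5.59 and 5.23 CPM in MUTYH-/ clones 7 and 8, 4.16 and 3.24 CPM in OGG1-/ clones 1 and 22, 4.21 and 3.48 CPM in DKO clones 4 and 14, and 6.87 and 5.68 CPM in WT_H2O2 clones 11 and 2. As with MT1E, no OGG1-lacking library of MT1M reached an untreated OGG1-proficient one, an order found for 1.55% of all genes tested.

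MT1G had 0 to 3 counts per library and did not pass the filter on low counts, so it entered no test and 5 of the 6 members were tested. Its counts stayed within the floor of 3 counts, which is 0.132 to 0.139 CPM here, and no difference could be detected at this depth. Of the 14 other metallothionein genes and pseudogenes in the table, none exceeded 5 counts in a library. MT3 and MT4, the brain and squamous epithelial forms, had 0 counts throughout, and MT1A and MT1H had at most 1. Counting error alone gave a coefficient of variation of at most 3.19% for MT1E and MT2A and of 11.7% for MT1M at its lowest count.

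**Figure D3:**
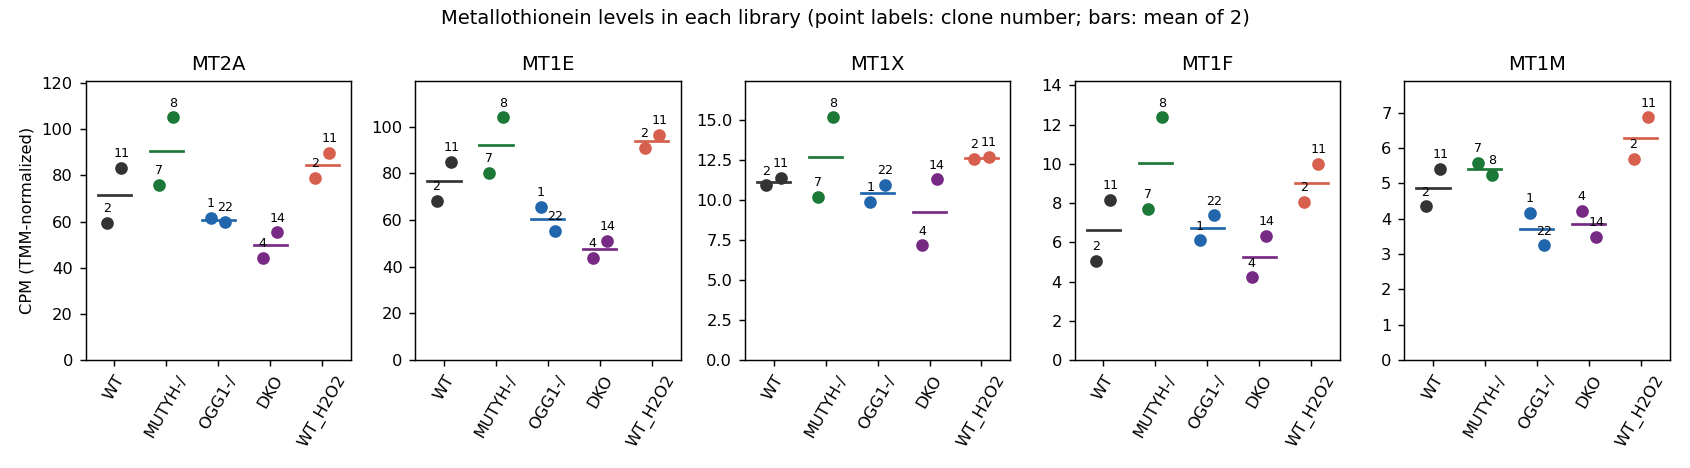
TMM-normalized CPM of 5 metallothioneins (panels, linear axes from 0) in each library by group; points are libraries labelled with the clone number and bars are means of 2 libraries. MUTYH-/ clone 8 is the highest library for MT2A, MT1E, MT1X and MT1F, and DKO clone 4 the lowest for those 4 genes.

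Whether loss of a DNA glycosylase altered the family was tested with edgeR's quasi-likelihood test in 1 fit of the 8 untreated libraries. A gene was called where unadjusted P was at most 0.05 and the log2 fold change was beyond 1 in either direction, the criterion of the study, and Benjamini-Hochberg adjusted p-values over 17881 genes stand beside it. No member was called in any of the 8 genotype contrasts, with edgeR or with DESeq2. Each knockout was set against the one pair of WT libraries, so differences from WT are not independent of each other. The members were not independent either. Over the 10 libraries, Pearson r between tested members ran from 0.386 (MT1M and MT1X) to 0.966 (MT1E and MT2A). Members that shift together are therefore not separate observations. The counts of 0 to 3 members with an unadjusted P of at most 0.05 are given with each contrast below.

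Without MUTYH, all 5 tested members had higher fitted levels than WT, by 0.15 (MT1M) to 0.60 (MT1F) on the log2 scale, with a median of 0.26 beside 0.01 over all genes. None was called, where 1.19% of all genes were, and 0 of 5 reached an unadjusted P of 0.05, beside 1.72% of all genes. For MT2A the log2 difference was 0.34 ± 0.23 (SE, 95% interval -0.19 to 0.87, adjusted p = 1). MUTYH-/ clone 8 was above clone 7 in every tested member except MT1M, at 5.23 and 5.59 CPM. MUTYH-/ clone 8 exceeded WT clone 2, of the same side, in all 5 members, with CPM ratios of 1.2 (MT1M) to 2.45 (MT1F), whereas MUTYH-/ clone 7 lay at 0.896 to 1.03 times WT clone 11. WT clone 11 was the higher WT clone in all 5 members. Against WT clone 2, MUTYH-/ clone 7 was higher for every tested member except MT1X. Mitochondrial counts were 3.75% in clone 8, the lowest share of the untreated libraries, and 6.10% in clone 7; their part in the result was not tested.

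Without OGG1, 4 of the 5 members had lower fitted levels than WT, with log2 differences of -0.40 (MT1M) to 0.03 (MT1F) and a median of -0.23 beside 0.01 over all genes. Calls were made for 1.67% of all genes and for 0 of 5 members, none of which reached an unadjusted P of 0.05, as 2.74% of all genes did. MT1E differed by -0.34 ± 0.20 (SE, 95% interval -0.80 to 0.12, adjusted p = 0.999). Its CPM ratio was 0.811 in OGG1-/ clone 22 against WT clone 2 and 0.773 in OGG1-/ clone 1 against WT clone 11. Any pairing of these libraries gives ratios under 1 for MT1E, so agreement between the sides added nothing. For MT2A the ratios were 1.007, which is close to no difference, and 0.739. Those for MT1F, 1.46 and 0.748, pointed in different directions. Between the same libraries, summed epithelial markers (EPCAM, CDH1, KRT8, KRT18) were at 71.3 to 101 CPM in OGG1-/ and 36.3 to 52.6 CPM in WT, leukocyte markers at 3.16 to 5.19 against 12.4 to 12.7 CPM and fibroblast markers at 30.6 to 48.4 against 22.6 to 29.2 CPM. The leukocyte sum was mostly KIT, at a mean of 11.8 CPM in WT and 2.84 CPM in OGG1-/. CD34, CD33 and CD14, at means under 1 CPM, were higher in OGG1-/. The fibroblast sum was mostly COL1A1 (25.0 CPM in WT, 39.1 CPM in OGG1-/), while COL1A2, DCN and LUM had lower means in OGG1-/. The part of these markers in the result was not tested.

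In DKO, all 5 members had lower fitted levels than WT. Both DKO clones came from 1 OGG1-/ clone, which the SEs, intervals and p-values of contrasts with DKO do not allow for. The log2 differences ran from -0.69 (MT1E) to -0.27 (MT1X), with a median of -0.34 beside 0.00 over all genes. The call rule took 1.77% of all genes and 0 of 5 members, and 1 member, MT1E, reached an unadjusted P of 0.05, beside 2.94% of all genes. MT1E differed by -0.69 ± 0.20 (SE, 95% interval -1.15 to -0.23, adjusted p = 1), which is 0.621 times the WT level. MT2A was at 0.698 times WT, with a log2 difference of -0.52 ± 0.23 and an interval of -1.05 to 0.01. Neither DKO library reached a WT library for MT1E, MT1M and MT2A, as was so for 12.6% of all genes tested. Within sides, MT1E was at 0.750 (DKO clone 14 against WT clone 2) and 0.516 (DKO clone 4 against WT clone 11) of WT, MT2A at 0.930 and 0.532, and MT1M at 0.801 and 0.779. MT1F was at 1.25 and 0.516 and MT1X at 1.03 and 0.629, so within sides these 2 members were lower in DKO clone 4 only. The sides join separate clones and were found in the data. DKO clone 14 lay between the WT clones for MT1F (6.31 CPM, WT 5.06 and 8.15) and MT1X (11.3 CPM, WT 10.9 and 11.4). DKO clone 4 also had the highest mitochondrial share of all libraries, 7.46%, against 4.25% in DKO clone 14. Epithelial markers were at 91.6 to 94.7 CPM in DKO and 36.3 to 52.6 CPM in WT, and leukocyte markers at 5.07 to 10.3 against 12.4 to 12.7 CPM. The leukocyte sum was mostly KIT, whereas CD34, CD33 and CD14, at means under 1 CPM, were higher in DKO. The part of these measures in the result was not tested.

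DKO was then set against each single knockout. Relative to OGG1-/, 1 clone of which was the DKO parent, the members differed by -0.36 (MT1F) to 0.06 (MT1M) on the log2 scale, with a median of -0.28 beside -0.01 over all genes. None of the 5 was called or reached an unadjusted P of 0.05, beside 1.44% and 2.62% of all genes. Relative to MUTYH-/, the differences were the largest of the 5 contrasts fitted between 2 genotypes, which left out OGG1-/ against MUTYH-/. They were -0.95 ± 0.20 for MT1E, -0.93 ± 0.36 for MT1F, -0.86 ± 0.23 for MT2A, -0.48 ± 0.28 for MT1M and -0.45 ± 0.29 for MT1X (log2, SE). The median was -0.86 beside -0.01 over all genes. Here 1.99% of all genes were called and 0 of 5 members, since no fold change passed 2-fold, while 3 members reached an unadjusted P of 0.05, beside 3.43% of all genes. The smallest adjusted p among the members was 0.753, that of MT1E, which stood at 0.518 times its MUTYH-/ level. Libraries did not overlap for MT1E, MT1F, MT1M and MT2A, compared with 14.4% of all genes tested. The Wald test of DESeq2, on the same 17881 genes, gave MT1E an adjusted p of 0.0275, and 12 alternatives gave it adjusted p-values between 0.0275 and 1. Leaving out MUTYH-/ clone 7 or DKO clone 14 brought MT1E, MT1F and MT2A past the fold threshold, so that 3 members were called in each case. The comparison without MUTYH-/ clone 7 set MUTYH-/ clone 8 alone against DKO. Epithelial markers were at 91.6 to 94.7 CPM in DKO and 44.8 to 68.4 CPM in MUTYH-/, while leukocyte markers (5.07 to 10.3 and 9.05 to 19.1 CPM) and mitochondrial shares (7.46% and 4.25%, against 6.10% and 3.75%) overlapped. The part of these measures in the result was not tested.

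Contrasting the 4 OGG1-lacking with the 4 OGG1-proficient clones used all untreated libraries at once. The fit took the clones as independent, although 3 of the 4 OGG1-lacking ones shared 1 lineage. Its SEs, intervals and p-values do not allow for that. All 5 members had lower fitted levels without OGG1. MT1E differed by -0.64 ± 0.14 (SE, 95% interval -0.97 to -0.32), or 0.640 times, and MT2A by -0.54 ± 0.16 (-0.92 to -0.17), or 0.686 times. MT1F, MT1M and MT1X differed by -0.45, -0.44 and -0.27. No member was called, beside 1.57% of all genes, and MT1E and MT2A reached an unadjusted P of 0.05, beside 3.79% of all genes. The adjusted p was 1 for each member with edgeR and 0.0481 for MT1E with DESeq2, and over 15 alternatives that of MT1E ran from 0.0481 to 1. MT1E kept a log2 difference of -0.73 to -0.55 in all of these, and with side as a block it was -0.64 (adjusted p = 0.340). The ranges did not overlap for MT1E (43.9 to 65.7 against 68.0 to 104 CPM) and MT1M (3.24 to 4.21 against 4.35 to 5.59 CPM), compared with 1.55% of all genes tested. For MT2A the ranges met, at 44.2 to 61.5 against 59.4 to 105 CPM.

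Cell type markers were read in the same contrast. Summed epithelial markers were at 71.3 to 101 CPM in the OGG1-lacking libraries and at 36.3 to 68.4 CPM in the untreated OGG1-proficient ones, with 3 of the 4 genes at a mean of 1 CPM or more and CDH1 at or under 3 counts throughout. Summed leukocyte markers, mostly KIT, were at 3.16 to 10.3 against 9.05 to 19.1 CPM, and fibroblast markers at 21.4 to 48.4 against 19.5 to 30.1 CPM, mostly COL1A1. Both of these sums overlapped. CD34, CD33 and CD14, at means under 1 CPM, were higher in OGG1-/ and DKO than in WT and MUTYH-/, and COL1A2, DCN and LUM were lower. COL1A1 means were 39.1 CPM in OGG1-/ and 26.0 CPM in DKO, against 25.0 CPM in WT and 24.1 CPM in MUTYH-/. Endothelial markers stayed at or under 0.416 CPM in sum. Their part in the metallothionein result was not tested. In bulk libraries such as these, fewer cells of a type and less RNA per cell cannot be told apart.

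Over the 4 MUTYH-lacking against the 4 MUTYH-proficient clones, the members differed by -0.04 (MT1E) to 0.12 (MT1F), with a median of 0.03 beside 0.00 over all genes. None of the 5 was called or reached an unadjusted P of 0.05, where 0.721% of all genes were called and 1.62% reached that P. For MT1E the 95% interval was -0.37 to 0.28, and for MT2A it was -0.35 to 0.40. The interaction, which is the MUTYH effect measured in OGG1-lacking clones less the same effect in OGG1-proficient clones, was negative for all 5 members, at -0.95 ± 0.51 (SE) for MT1F, -0.62 ± 0.32 for MT2A, -0.61 ± 0.28 for MT1E, -0.36 ± 0.40 for MT1X and -0.09 ± 0.40 for MT1M. None was called or reached an unadjusted P of 0.05, beside 2% of all genes called and 2.62% at that P. The median was -0.61 beside -0.02 over all genes, and the interval of MT1E was -1.26 to 0.04. Without WT clone 11, MT1F was called at -1.35, so 1 library decided that call.

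Read counts of all 20 metallothionein rows were also summed to 1 feature, so that a read placed on the wrong row still entered the sum. Reads dropped for several alignments, or counted on more than 1 row, are not corrected by summing. This sum differed from WT by 0.30 ± 0.21 (log2, SE) in MUTYH-/, -0.26 ± 0.21 in OGG1-/ and -0.56 ± 0.21 in DKO, and by -0.86 ± 0.21 between DKO and MUTYH-/. It was called in none of the 9 comparisons.

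**Figure D4:**
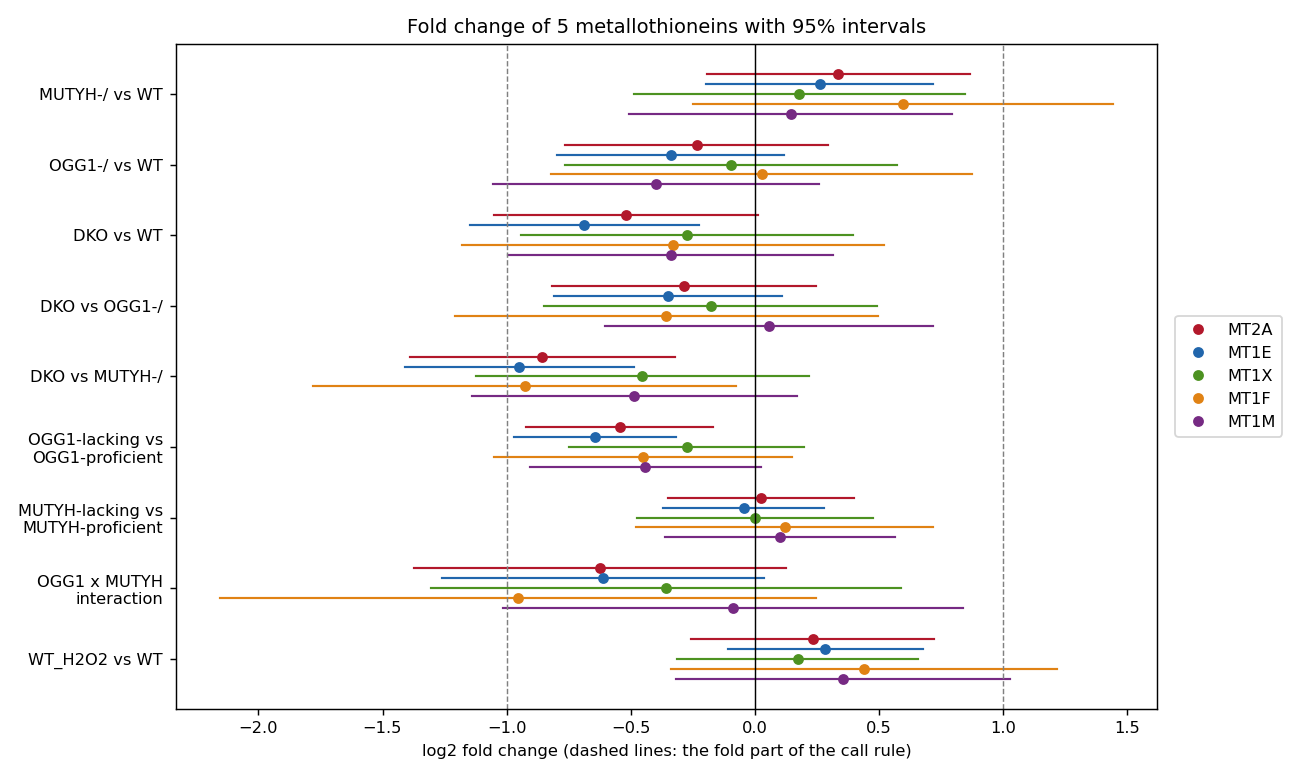
Log2 fold change (points) and 95% interval (lines) of 5 metallothioneins in the 9 comparisons, from edgeR's quasi-likelihood fits. Dashed lines mark the log2 fold change of 1 in the call rule; the largest negative values are those of DKO against MUTYH-/, at -0.95 for MT1E, and of the interaction, at -0.95 for MT1F.

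The response to H2O2 was measured in the WT clones alone, in a fit of 4 libraries with 16997 genes. All 5 tested members had higher fitted levels 24 h after 100 µM H2O2, by 0.17 ± 0.20 (MT1X), 0.23 ± 0.20 (MT2A), 0.29 ± 0.16 (MT1E), 0.36 ± 0.27 (MT1M) and 0.44 ± 0.31 (MT1F) on the log2 scale (SE), with a median of 0.29 beside 0.00 over all genes. None was called, where 1.75% of all genes were, and 0 of 5 reached an unadjusted P of 0.05, beside 7.63% of all genes. DESeq2 also called none. The smallest adjusted p among them was 0.669, that of MT1E. The intervals left room for both no change and a larger one, from -0.11 to 0.68 for MT1E and from -0.26 to 0.72 for MT2A. Treated libraries lay above both untreated ones for MT1E, MT1M and MT1X, as for 21.5% of all genes tested, and overlapped them for MT1F and MT2A. The sizes depended on the untreated clone: without WT clone 2 the log2 difference was 0.005 for MT2A, 0.127 for MT1E and 0.132 for MT1F, and without WT clone 11 it was 0.50, 0.459 and 0.831.

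The same clones were measured untreated and treated, in separate libraries, so libraries could be compared within each clone. The untreated libraries were those of the genotype series. The sources used here do not say whether treated and untreated cells were grown and sequenced together. Treatment therefore cannot be told apart from culture or sequencing run. All 5 members were higher in both clones, as were 34.0% of all genes tested. In clone 2 the CPM ratios were 1.34 for MT1E, 1.33 for MT2A, 1.59 for MT1F, 1.31 for MT1M and 1.154 for MT1X, and in clone 11 they were 1.14, 1.08, 1.23, 1.27 and 1.11 in the same order. With clone as a replicate block, the log2 differences were 0.29 ± 0.13 for MT1E, 0.47 ± 0.21 for MT1F and 0.25 ± 0.13 for MT2A. MT1E and MT1F then reached an unadjusted P of 0.05, as did 20.1% of all genes, no member was called, and the smallest adjusted p was 0.221, that of MT1E. This paired fit called 2.78% of all genes, and 2.57% had an adjusted p of at most 0.05, against 0 genes in the fit without the block. Mitochondrial counts were 2.995% and 3.38% in the treated libraries against 5.14% and 5.02% in the untreated ones of clones 11 and 2. Summed epithelial markers were at 44.8 to 73.4 against 36.3 to 52.6 CPM, which overlapped. KRT8, KRT18 and EPCAM were each higher in both clones, a direction shared by 34.0% of all genes tested. Summed leukocyte markers were at 8.23 to 9.51 against 12.4 to 12.7 CPM and fibroblast markers at 15.5 to 18.4 against 22.6 to 29.2 CPM. The leukocyte sum was mostly KIT, whereas CD34 and CD33, at means under 1 CPM, were higher after treatment. The fibroblast sum was mostly COL1A1. The part of these measures in the result was not tested.

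**Figure D5:**
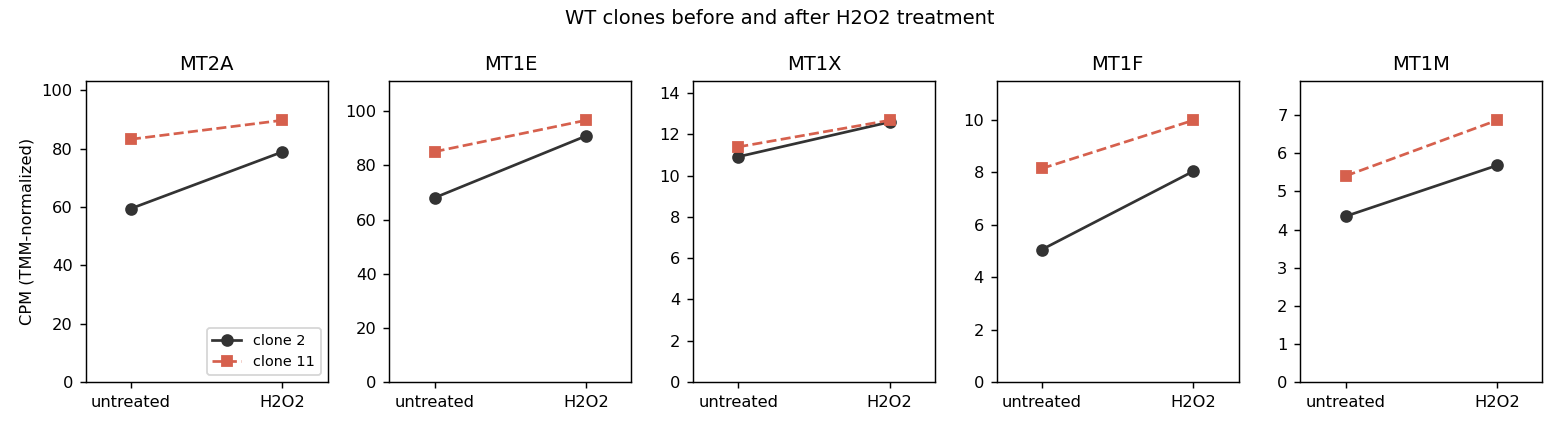
TMM-normalized CPM of 5 metallothioneins in WT clones 2 and 11, untreated and 24 h after 100 µM H2O2 (linear axes from 0; lines join libraries of 1 clone). Every line goes up, and the gap between the untreated clones (59.4 and 83.2 CPM for MT2A) is larger than the difference within clone 11 (83.2 and 89.7 CPM).

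The other genes of zinc and copper handling were read from a list of 32 genes, of which 26 were tested. It held MTF1, the zinc exporters and importers of the SLC30 and SLC39 families, the copper transporters and the copper chaperones. None was called in any of the 8 genotype contrasts, and list medians lay between -0.10 and 0.02 on the log2 scale beside -0.02 to 0.01 over all genes. MTF1, the regulator of the family, was measured at 25.9 and 26.9 CPM in WT clones 11 and 2, 24.8 and 29.2 CPM in MUTYH-/ clones 7 and 8, 23.3 and 19.2 CPM in OGG1-/ clones 1 and 22, 25.3 and 24.4 CPM in DKO clones 4 and 14, and 31.4 and 37.2 CPM in WT_H2O2 clones 11 and 2. MTF1 differed by -0.21 ± 0.12 (log2, SE) between OGG1-lacking and OGG1-proficient clones. Both treated libraries were above both untreated WT libraries for MTF1, as was so for 21.5% of all genes tested. The log2 difference was 0.37 ± 0.16 (adjusted p = 0.638).

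SLC30A1, the plasma membrane zinc exporter that MTF1 also induces, was ordered differently from the metallothioneins. In untreated cells it was at 62.7, 67.6, 64.0 and 55.8 CPM in WT clone 11, MUTYH-/ clone 7, OGG1-/ clone 1 and DKO clone 4, and at 38.2, 42.0, 20.5 and 30.9 CPM in WT clone 2, MUTYH-/ clone 8, OGG1-/ clone 22 and DKO clone 14. Its levels thus split by side and not by genotype, and SLC30A1 was among the genes from which the sides were found. After H2O2 it went from 38.2 to 105 CPM in clone 2 and from 62.7 to 53.5 CPM in clone 11, so the clones moved in opposite directions, and the log2 difference of 0.64 ± 0.38 was not called.

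In the H2O2 comparison none of the 26 genes was called, and the list median was -0.10 beside 0.00 over all genes. With clone as a replicate block, which left 1 residual degree of freedom, 1 of the 26 genes was called, beside 2.78% of all genes. This was SLC30A10, a manganese exporter, lower at a log2 difference of -1.36 ± 0.48 (adjusted p = 0.146), from 41 and 11 counts to 12 and 7 counts in clones 11 and 2. SLC39A10, a plasma membrane zinc importer, had the 1 adjusted p among the 26 genes under 0.05, at 0.0113, beside 2.57% of all genes. It went from 110 and 76.5 CPM to 61.7 and 49.0 CPM in clones 11 and 2, a log2 difference of -0.75 ± 0.13 in the paired fit, with an adjusted p of 0.638 without the block.

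Protein-coding genes near the cluster were read beside the family, and those that met the call rule were NLRC5 and SLC12A3, both at higher coordinates. NLRC5, a regulator of class I antigen presentation genes, was called lower in OGG1-/ (-1.50 ± 0.42, log2, SE) and in DKO (-1.08 ± 0.41) than in WT, with adjusted p-values of 0.999 and 1 in edgeR and beside 1.67% and 1.77% of all genes called. WT stood at 9.08 and 20.3 CPM in clones 11 and 2. Without WT clone 2 the differences were -0.82 and -0.40 and neither was called, and that in DKO was also lost without DKO clone 14, at -0.85. SLC12A3, the thiazide-sensitive sodium chloride cotransporter, was called higher in MUTYH-/ than in WT (2.74 ± 0.64, where 1.19% of all genes were called), with 6.19 and 1.86 CPM in MUTYH-/ clones 7 and 8 against 0.709 and 0.488 CPM in WT clones 11 and 2. It was also called in the contrast of DKO against MUTYH-/, in that of MUTYH-lacking clones and in the interaction, and its adjusted p was 1 in all 4. Without MUTYH-/ clone 7, DKO against MUTYH-/ was at -0.815 and the MUTYH-lacking contrast at 0.741, and neither was called. The difference of MUTYH-/ from WT stayed at 1.61 or more whichever library was left out. The call between DKO and MUTYH-/ was also lost without DKO clone 14 (-1.73), and that of MUTYH-lacking clones without WT clone 2 (1.18), OGG1-/ clone 22 (1.154) or DKO clone 4 (1.18). MUTYH-/ clone 7 was its highest library, whereas clone 8 was the highest for most metallothioneins.

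Among 14772 other genes with a mean of at least 1 CPM, those most like the members' mean standardized log2 CPM over the 10 libraries were PAFAH1B1 and ZNF17 (Pearson r = 0.936), FAIM and ERCC6L2 (0.932) and ZMYND11 (0.921). In all, 9 genes had r of at least 0.9. PAFAH1B1, a dynein regulator, ranged from 143 to 193 CPM and FAIM, an inhibitor of apoptosis, from 28.4 to 46.0 CPM, both narrower than the 2.38-fold range of MT2A. The 10 libraries share clones and a parental lineage, so these values describe the libraries.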

How the data were processed

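RNA was isolated with antioxidants and sequenced on a DNBseq platform. The deposited files hold read counts per gene and library, whole numbers that the authors made by aligning reads with Hisat2 2.2.1 to GRCh38 and counting them over Ensembl genes with Rsubread, not normalized. Strand setting, read length and multi-mapping rule are not given in the sources used here. Untreated WT columns of the treatment table repeated those of the genotype table and were used once.

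Totals were 22225091 to 22674964 counts. No molecular identifiers were used, so reads do not stand for separate molecules, and floors (3 counts) and counting intervals cover counting error only. CPM values used TMM factors (0.967 to 1.01) and log2 CPM a prior count of 2. Levels between genes were divided by the transcript length within RefSeq gene bounds. Tests ran under R 4.3.3 in edgeR 4.0.16 (TMM, filterByExpr, quasi-likelihood F test, legacy=TRUE), with 4 residual degrees of freedom for genotypes and 2 for H2O2, after a test on simulated data. P-values are two-sided, and the 95% intervals use the SE and degrees of freedom of the fit. DESeq2 1.42.0 was an alternative, beside other normalizations, filters, library sets, blocks and leaving out each library.

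WT clone numbers pair treated and untreated libraries, since the clones were the same. Their clone differences correlated across 16997 genes (Pearson r = 0.681), and a paired fit with clone as a replicate block had 1 residual degree of freedom. Named genes were the 6 members, the other metallothionein rows, MTF1, SLC30A1 and any called gene of the zinc and copper list, 5 neighbours on each side and the 5 most similar genes. One item selected by this rule is not reported. SLC39A10 was named after its values were seen. The members and lists were chosen with earlier results of these data known.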

Additional observations from a re-analysis of the deposited data

How the results depend on the processing

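The count of members called was 0 in all 9 comparisons, and stayed at 0 under DESeq2 size factors, the Wald test of DESeq2, edgeR's newer quasi-likelihood test, no filter on low counts, a minimum of 10 counts in every library, all 10 libraries in 1 fit and the summed family. It also stayed at 0 with only the 4 libraries compared in the 5 contrasts between 2 genotypes, with side as a block in the 8 genotype contrasts and with the replicate block for H2O2. It moved only when 1 library was left out: to between 0 and 3 for DKO against MUTYH-/ and to between 0 and 1 for the interaction. The replicate block changed no call of a member (MT1E 0.293, MT2A 0.25 on the log2 scale in the paired fit). In the contrast of MUTYH-lacking clones, MT1X was near 0 and turned negative at -0.004 (DESeq2 size factors), -0.007 (no filter, and also the minimum of 10 counts), -0.003 (DESeq2) and -0.025 (side as a block). MT1F in OGG1-/ against WT was -0.001 with side as a block. Without 1 library at a time, log2 differences changed sign for MT1M (-0.008 to 0.315) and MT1X (-0.123 to 0.428) in MUTYH-/ against WT, for MT1F (-0.281 to 0.416) and MT2A (-0.461 to 0.033) in OGG1-/ against WT, for MT1F (-0.654 to 0.058) and MT1X (-0.642 to 0.008) in DKO against WT, for MT1M (-0.121 to 0.257) and MT1X (-0.546 to 0.106) in DKO against OGG1-/, for MT1E (-0.139 to 0.043), MT1F (-0.065 to 0.314), MT1X (-0.18 to 0.143) and MT2A (-0.097 to 0.159) in the MUTYH-lacking contrast, and for MT1M in the interaction (-0.265 to 0.111). The cause was not tested. Leaving out a library left 1 clone in its group, which the fit assumed to vary like the other groups. No sign changed in these runs for DKO against MUTYH-/, the OGG1-lacking contrast or H2O2, although the H2O2 differences ran from 0.005 to 0.5 for MT2A and from 0.132 to 0.831 for MT1F. MT1G could not be tested at this depth.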
